A study of Mus musculus with 4 samples.

Results

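The angiogenic and epidermal growth factor genes described here are Vegfa, Vegfb, Vegfc, Hbegf, Areg, Ereg, Thbs1, Plau and Plaur, 9 genes chosen by symbol. The array annotation names 18193 genes in all, and 8 of the 9 are among them. Every probe set annotated to one of these symbols was taken. This gave 14 probe sets of a single gene for those 8 genes, and 1 more probe set that the annotation assigns to both Thbs1 and Pald1. The annotation used here names no probe set for Areg, which was therefore not analysed. The 9 genes are not all ligands, since Thbs1 encodes a matrix glycoprotein, Plau a protease and Plaur its receptor.

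RNA was measured on 4 Affymetrix mouse arrays, 1 for each culture condition of dendritic cells grown from the bone marrow (BMDC) of male C57BL/6 mice aged 6 to 8 weeks. In the live-cell coculture BMDC were grown together with tumour cells of the 1D8 line, which derives from mouse ovarian surface epithelium, at 1 tumour cell to 5 BMDC. The irradiated-cell coculture used 1D8 cells that had received 50 Gy, the conditioned medium sample received 1D8 supernatant at 25% of the volume, and the control BMDC were grown alone. All 4 samples had been cultured with 500 U/ml GM-CSF for 7 days and were sorted by flow cytometry on CD80, a costimulatory surface protein, before RNA extraction. Each condition was 1 biological sample, so no error could be computed, no test was run, and higher or lower describes these arrays only.

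Vascular endothelial growth factors (VEGF) are secreted dimers that bind tyrosine kinase receptors on blood and lymph vessel endothelium, and myeloid cells around tumours are a known source of VEGF-A. Hbegf, Areg and Ereg encode ligands of the epidermal growth factor (EGF) family, which are made as membrane-anchored precursors, released by metalloproteinases and bound by the EGF receptor and its relatives. Thrombospondin 1, the product of Thbs1, restrains vessel growth through the receptors CD36 and CD47 and can activate latent TGF-beta. Urokinase, the product of Plau, turns plasminogen into the matrix-degrading protease plasmin at the cell surface, where Plaur, the urokinase receptor, holds it.

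The deposited values were 1 linear signal per probe set. The median signal lay between 38.7 and 46.8 on the 4 arrays, and 58.8% to 62.5% of the 18193 genes exceeded a floor of 44.3, the median of all signals, to which lower signals were raised before ratios were taken. All 12 dendritic cell and myeloid markers exceeded the floor on every array, among them Itgax, Cd74 and Csf1r, and Flt3 and Zbtb46 did so narrowly (signals of 45.5 to 73.2). Of these 12, 2 were at least 2-fold higher than in the control and 1 was lower in the live-cell coculture, 3 were higher and 0 lower in the irradiated-cell coculture, and 2 were higher and 0 lower in conditioned medium. Cd80, the gene of the protein used for the sort, was 4.42-fold, 3.81-fold and 2.35-fold higher in the live-cell coculture, irradiated-cell coculture and conditioned medium. Its 2 other probe sets above the floor on any array had log2 ratios of 0.52 to 2.51, 0.38 to 1.95 and 0.00 to 0.46 in that order. Itgam was 2.74-fold, 3.54-fold and 2.64-fold higher in the same order. H2-Ab1 was 2.03-fold lower in the live-cell coculture and 1.95-fold lower, just under 2-fold, in the irradiated-cell coculture. Its 2 other probe sets had log2 ratios of -1.71 to -1.57 and -1.35 to -1.30 in these cocultures. Of 12 epithelial and mesothelial markers, 8 exceeded the floor in the live-cell coculture, 9 in the irradiated-cell coculture, 5 in conditioned medium and 3 in the control, with summed signals of 2856, 3511, 818.5 and 481.3 in the same order. Krt19, Wt1, Upk3b, Msln, Krt7, Lrrn4 and Pkhd1l1 were under the floor both in conditioned medium and in the control. Krt8 was nearly level between these arrays, with signals of 64.1 in conditioned medium and 66.1 in the control. For Cdh1, Epcam, Cldn4 and Krt18 the conditioned medium signal exceeded that of the control, with less than 2-fold between floored signals. Cdh1 had 338.0 in conditioned medium and 189.5 in the control, Epcam 168.5 and 103.8, Cldn4 72.6 and 18.3, and Krt18 58.3 and 9.9. The summed signal of 10 mesenchymal markers was 1113 in the live-cell coculture, 1172 in the irradiated-cell coculture, 507.0 in conditioned medium and 483.7 in the control. The 8 endothelial markers summed to 254.0 to 305.6, with Cdh5, Tie1, Tek, Emcn and Sox17 under the floor on all 4 arrays. Macrophage markers (6 measured) summed to 11593 in the live-cell coculture, 12199 in the irradiated-cell coculture, 13128.5 in conditioned medium and 13094 in the control. All of them but Marco exceeded the floor on every array, Adgre1, Cd68 and Mrc1 included. Neutrophil markers (8 measured) summed to 821.8 in the live-cell coculture, 1004 in the irradiated-cell coculture, 856.4 in conditioned medium and 1947 in the control. Mast cell and basophil markers (8 measured) summed to 341.9 and 427.1 in the live-cell and irradiated-cell cocultures, 941.1 in conditioned medium and 1454 in the control. Their part in the results below was not tested. How much tumour cell RNA the coculture samples held was not tested, and 1D8 RNA alone was not analysed here.

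**Figure D1:**
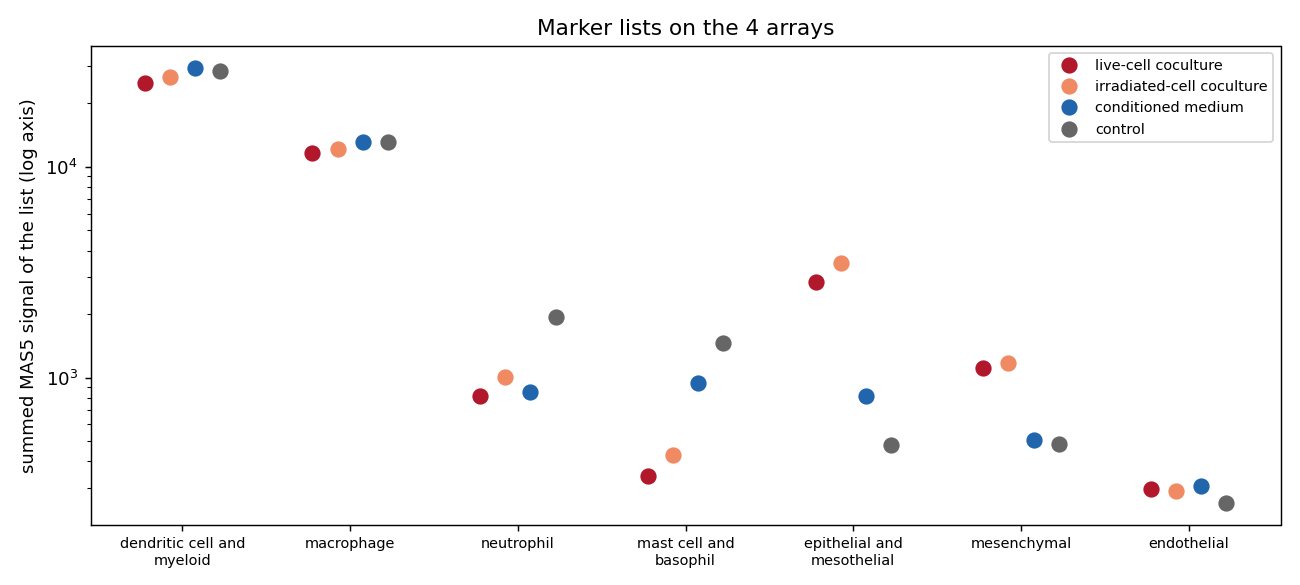
Summed signal of each marker list (vertical, log axis) on the live-cell coculture, irradiated-cell coculture, conditioned medium and control arrays, 1 point per array. The epithelial and mesothelial list summed to 2856 and 3511 in the cocultures, against 818.5 in conditioned medium and 481.3 in the control, while the dendritic cell and myeloid list summed to between 25012 and 29538, a total carried by its brightest genes.

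Vegfa, Hbegf and Thbs1 were each at least 3-fold higher in both cocultures than in the control at their brightest probe set. Vegfb and Plaur, the 2 other genes above the floor, differed by less than 2-fold. Vegfc, Ereg and Plau were at or under the floor on all 4 arrays. Differences count from 2-fold on, with the probe set of highest mean log2 signal standing for the gene. By this count 3 of 8 genes were higher and none was lower in the live-cell coculture, against 3.36% higher and 2.23% lower among all genes. In the irradiated-cell coculture 3 of 8 were also higher and none lower, against 3.47% and 2.25% of all genes. In conditioned medium 0 of 8 were higher or lower, against 2.30% and 1.41% of all genes. The median log2 ratio over the 8 genes was 0.20 in the live-cell coculture, 0.32 in the irradiated-cell coculture and 0.00 in conditioned medium, and that of all genes was 0.00 in each. The 3 comparisons share the control array.

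**Figure D2:**
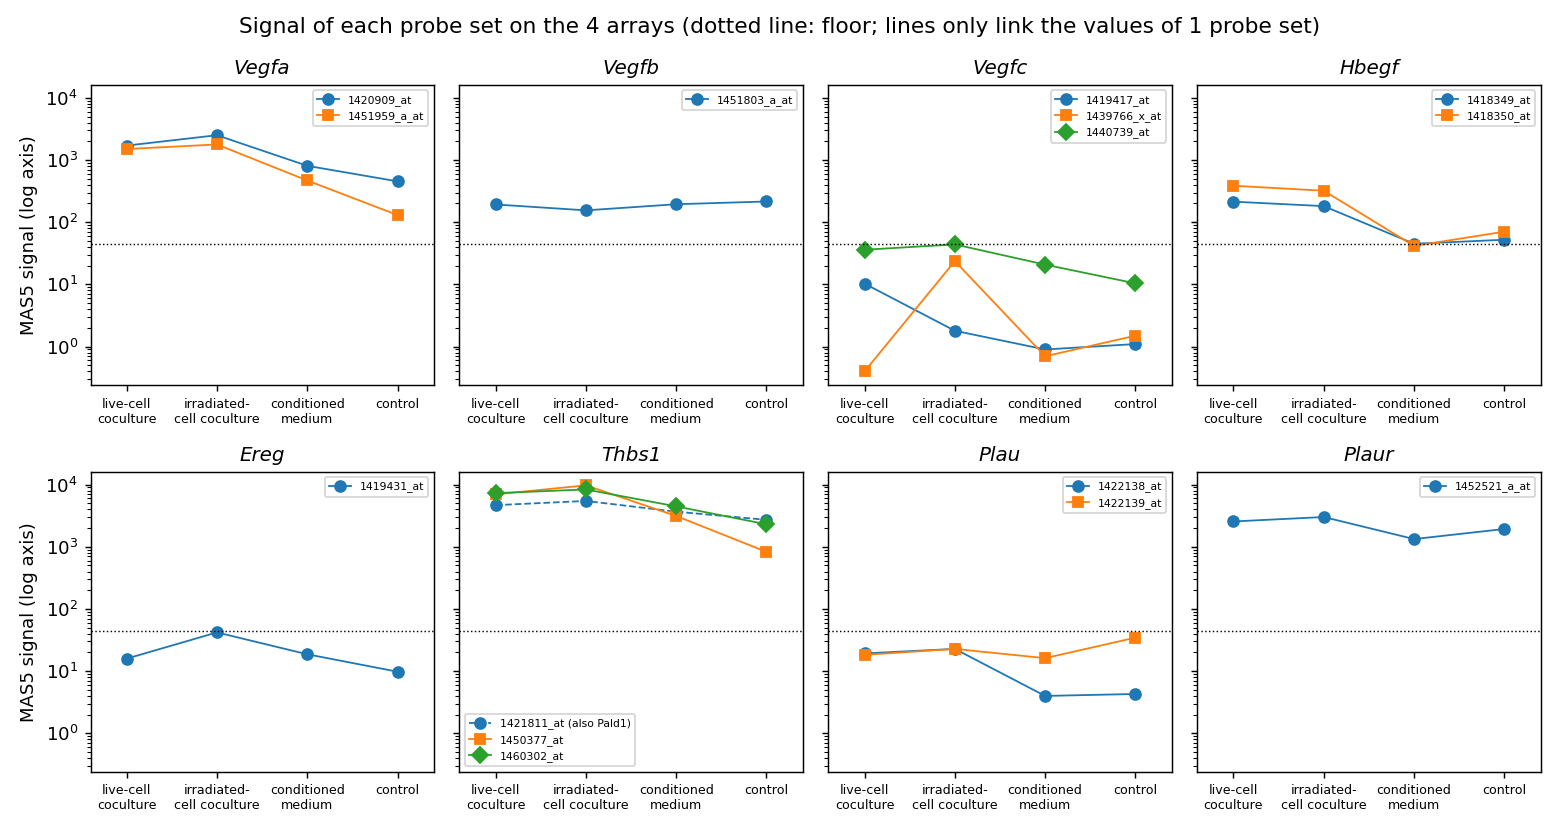
Signal (vertical, log axis) of every probe set of the 8 genes on the 4 arrays, with the floor of 44.3 as a dotted line and a dashed line for the probe set that also names Pald1. On each probe set of Vegfa and Thbs1 the irradiated-cell coculture was highest, followed by the live-cell coculture, conditioned medium and the control, Hbegf stood high on the 2 coculture arrays alone, and Vegfc, Ereg and Plau lay under the floor.

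Vegfa encodes the main endothelial growth factor of the family and is known as a target of the hypoxia-inducible factors. Its brightest probe set (1420909_at) had signals of 1705.9 in the live-cell coculture, 2504.1 in the irradiated-cell coculture, 806.6 in conditioned medium and 453.6 in the control. The other probe set (1451959_a_at) had signals of 1500.7, 1778.3 and 468.5 on the 3 treated arrays in the same order and 130.3 in the control. Both probe sets placed the arrays in 1 order, with the irradiated-cell coculture highest and the control lowest. Relative to the control, Vegfa was 3.76-fold higher in the live-cell coculture at the first probe set and 11.5-fold higher at the second. In the irradiated-cell coculture it was 5.52-fold and 13.6-fold higher. In conditioned medium it was 1.78-fold higher at the first, under the 2-fold threshold, and 3.60-fold higher at the second.

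The probe sets therefore shared a direction but not a size. Their log2 ratios of live-cell coculture to control lay 1.61 apart, a wider range than for 94.3% of the 4092 genes that had several probe sets brighter than the floor on all arrays, whose median range was 0.55. For conditioned medium they lay 1.02 apart, which is wider than for 83.2% of those genes. Between the cocultures they lay 0.31 apart, close to the median range of 0.28. Between the cocultures Vegfa stayed under 2-fold, with the live-cell coculture 1.47-fold lower than the irradiated one at the brightest probe set and 1.18-fold lower at the other. In this comparison 404 of the 18193 genes had a log2 ratio as low as the brightest probe set of Vegfa or lower. Against conditioned medium Vegfa was 2.11-fold and 3.20-fold higher in the live-cell coculture and 3.10-fold and 3.80-fold higher in the irradiated-cell coculture.

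Vegfb encodes a ligand of VEGF receptor 1 linked to fatty acid uptake and to the maintenance of vessels rather than their growth. Its single probe set had signals of 192.9 in the live-cell coculture, 155.1 in the irradiated-cell coculture, 194.6 in conditioned medium and 215.4 in the control. The control was highest here and the irradiated-cell coculture lowest, the reverse of the order for Vegfa. None of these differences reached 2-fold, the widest being 1.39-fold lower in the irradiated-cell coculture than in the control.

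Regions before annotated starts of transcription of these 2 genes and of Plaur, described further on, are shown. They were chosen because Vegfa and its relative Vegfb stood in opposite order over the arrays and Plaur had its lowest signal in conditioned medium. The Plaur start used lies 1546 bases downstream of the annotated start of the gene, so its window lies inside the gene. RefSeq promoter entries on build GRCm38.p6 were at hand for Vegfa, Vegfb and Plaur among the 5 genes above the floor. Each sequence is the 250 bases before an annotated start of transcription, written 5′ to 3′ on the strand of the gene, with capitals for letters matching GGGCGG (a GC box, the core bound by Sp1) or TGANTCA (an AP-1 site) on either strand.
Vegfa, chr17:46032378-46032627, minus strand: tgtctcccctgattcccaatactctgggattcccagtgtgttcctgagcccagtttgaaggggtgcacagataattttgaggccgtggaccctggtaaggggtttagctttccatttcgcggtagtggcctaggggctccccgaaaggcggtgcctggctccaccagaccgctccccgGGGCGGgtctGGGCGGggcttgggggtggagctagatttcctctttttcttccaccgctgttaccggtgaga
Vegfb, chr19:6987652-6987901, minus strand: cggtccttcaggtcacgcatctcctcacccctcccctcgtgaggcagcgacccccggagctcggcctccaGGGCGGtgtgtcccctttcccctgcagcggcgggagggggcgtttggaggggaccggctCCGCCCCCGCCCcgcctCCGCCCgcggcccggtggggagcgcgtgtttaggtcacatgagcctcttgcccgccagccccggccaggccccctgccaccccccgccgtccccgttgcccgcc
Plaur, chr7:24462233-24462482, plus strand: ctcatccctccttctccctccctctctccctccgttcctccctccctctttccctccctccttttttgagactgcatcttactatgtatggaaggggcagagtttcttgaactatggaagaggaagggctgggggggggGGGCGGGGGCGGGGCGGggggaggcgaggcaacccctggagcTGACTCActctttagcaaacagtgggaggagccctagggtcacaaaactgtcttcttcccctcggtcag
In the Vegfa window GGGCGG occurred 2 times, beginning 72 and 62 bases before the start. It occurred 4 times in the Vegfb window, 180, 121, 115 and 104 bases before the start, so the motif was not peculiar to the gene that differed. In the Plaur window it occurred 3 times, beginning 111, 105 and 100 bases before the start, with the last 2 matches overlapping. Over all 32851 promoter windows of this length 32.7% held GGGCGG. Only the Plaur window of the 3 held TGANTCA, 69 bases before the start, as did 6.75% of all windows. ACGTG, the core of the hypoxia response element, occurred in none of the 3 windows printed and in 16.6% of all windows. A second Vegfa entry has its start 7214 bases downstream of the first, so its window, like that of Plaur, lies inside the gene. That window held ACGTG once, 211 bases before that start. These matches describe letters only and no binding was measured. The windows end 250 bases before each start, so a motif absent from them may lie elsewhere.

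Vegfc encodes the growth factor of lymphatic vessels. Its 3 probe sets had signals of 0.4 to 36.1 in the live-cell coculture, 1.8 to 44.0 in the irradiated-cell coculture, 0.7 to 20.8 in conditioned medium and 1.1 to 10.4 in the control. The brightest (1440739_at) gave the highest of these values on each array and reached 44.0, just under the floor, in the irradiated-cell coculture. No fold is given, since both sides of every comparison lay under the floor.

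Hbegf encodes heparin-binding EGF-like growth factor, a ligand of the EGF receptor and of ErbB4 that macrophages are known to make. Its brightest probe set (1418350_at) had signals of 385.8 in the live-cell coculture, 320.7 in the irradiated-cell coculture, 41.6 in conditioned medium and 70.5 in the control. The other (1418349_at) had 214.0 and 181.4 in the live and irradiated-cell cocultures, 45.0 in conditioned medium and 52.3 in the control. Both gave 1 order of the arrays, in which the live-cell coculture was highest, the irradiated-cell coculture next, and conditioned medium lowest.

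Against the control Hbegf was 5.47-fold higher in the live-cell coculture at the first probe set and 4.09-fold higher at the second. In the irradiated-cell coculture it was 4.55-fold and 3.47-fold higher. In conditioned medium it was at least 1.59-fold lower at the first, where the signal lay under the floor, and 1.16-fold lower at the second. In their ratios to the control the 2 probe sets of Hbegf thus lay closer together than those of Vegfa. The coculture signals were several times the conditioned medium signal at each. The live-cell coculture was at least 8.71-fold higher than conditioned medium at the brightest probe set, a log2 ratio that 8 of the 18193 genes, Hbegf included, reached or exceeded. The irradiated-cell coculture was at least 7.24-fold higher than conditioned medium, which 14 genes reached or exceeded. At the other probe set the live-cell coculture was 4.76-fold higher than conditioned medium, which 33 genes reached or exceeded. The irradiated-cell coculture was 4.03-fold higher there, which 64 genes reached or exceeded. The size against conditioned medium thus depended on the probe set. With the floor at the 75th percentile of all signals (155.6) the log2 ratio of Hbegf was 1.31 for the live-cell coculture over conditioned medium and over the control and 1.04 for the irradiated-cell coculture over each. Of the 5 genes above the floor Hbegf had the widest difference between either coculture and conditioned medium at the brightest probe sets. On the same 2 coculture arrays 6 and 7 of the 12 epithelial and mesothelial markers were at least 2-fold higher than in the control, against 0 in conditioned medium, and the part of tumour cell RNA in the Hbegf signal was not tested.

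Ereg encodes epiregulin, a broad ligand of the EGF receptor family. Its single probe set had signals of 15.9 in the live-cell coculture, 42.0 in the irradiated-cell coculture, 18.7 in conditioned medium and 9.8 in the control. All 4 lay under the floor, the irradiated-cell coculture closest to it, so no fold is given.

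**Figure D3:**
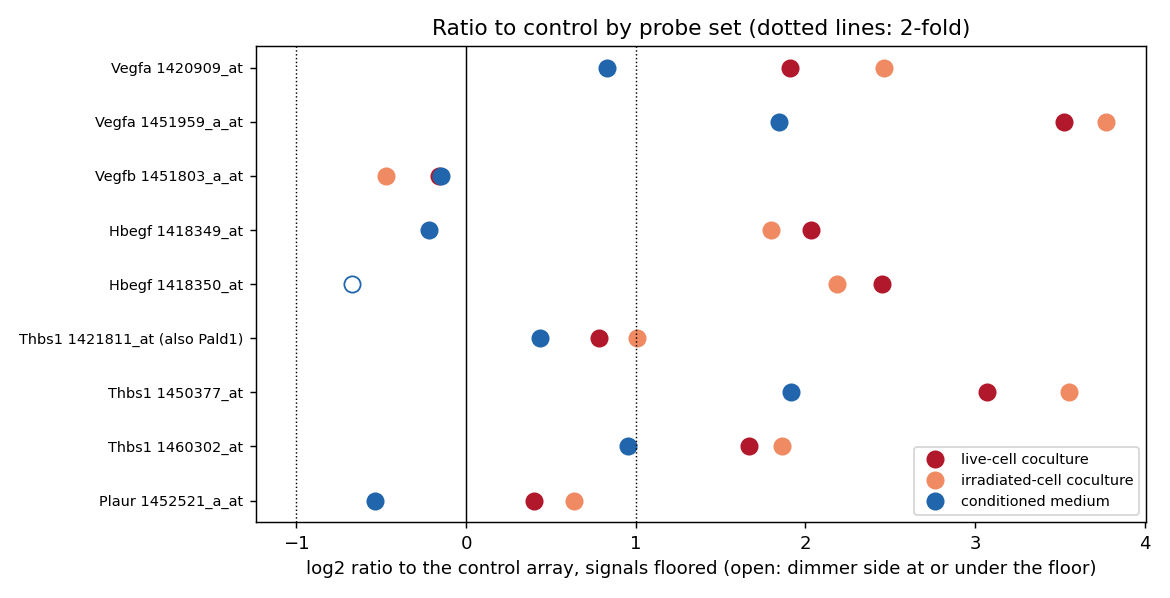
Log2 ratio to the control (horizontal) for each probe set of the 5 genes above the floor, with 1 point for each of live-cell coculture, irradiated-cell coculture and conditioned medium; open points mark a dimmer side under the floor and dotted lines mark 2-fold. The probe sets of Vegfa and Thbs1 shared direction but lay up to 1.69 apart on the log2 scale between those annotated to 1 gene, and Hbegf was higher in the cocultures and lower in conditioned medium on both of its probe sets.

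Thbs1 was bright on all 4 arrays. Its brightest probe set (1460302_at) had signals of 7282.3 in the live-cell coculture, 8338.3 in the irradiated-cell coculture, 4457.5 in conditioned medium and 2296.3 in the control. The other single-gene probe set (1450377_at) had 6950.5, 9717.4 and 3121.7 on the treated arrays in the same order and 827.6 in the control. The probe set shared with Pald1 (1421811_at) had 4666.4, 5448.7 and 3661.2 on the treated arrays and 2709.8 in the control, and is not counted for Thbs1. On all 3 the order was that of Vegfa, with the irradiated-cell coculture highest, then the live-cell coculture, conditioned medium and the control.

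In the live-cell coculture Thbs1 was 3.17-fold higher than in the control at the brightest probe set and 8.40-fold higher at the other. In the irradiated-cell coculture it was 3.63-fold and 11.7-fold higher. In conditioned medium it was 1.94-fold higher at the brightest, just under the threshold, and 3.77-fold higher at the other. The shared probe set showed 1.72-fold, 2.01-fold and 1.35-fold for the live-cell coculture, the irradiated-cell coculture and conditioned medium over the control. Here too the size depended on the probe set, with a log2 range of 1.69 for the irradiated-cell coculture over the control, wider than for 96.9% of the 4092 genes compared. Against conditioned medium the brightest probe set of Thbs1 was 1.63-fold higher in the live-cell coculture and 1.87-fold higher in the irradiated-cell coculture, both under 2-fold, while the other was 2.23-fold and 3.11-fold higher.

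Epithelial and mesothelial markers were higher on the same coculture arrays, with the counts and sums given above. How far tumour cell RNA contributed to the Vegfa and Thbs1 signals was not tested. In a sorted mixture of cells, fewer cells of a type and less RNA per cell cannot be told apart.

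Plau was under the floor on every array at both of its probe sets. One (1422138_at) had signals of 19.3 in the live-cell coculture, 22.8 in the irradiated-cell coculture, 4.0 in conditioned medium and 4.3 in the control. The other (1422139_at) had 18.3, 22.8 and 16.2 on the treated arrays in the same order and 34.6 in the control, so the probe sets did not share an order and no fold is given.

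Plaur, the receptor, was bright. Its single probe set had signals of 2551.0 in the live-cell coculture, 3006.8 in the irradiated-cell coculture, 1329.6 in conditioned medium and 1931.4 in the control. The cocultures lay above the control and conditioned medium below it. Plaur was 1.32-fold higher in the live-cell coculture, 1.56-fold higher in the irradiated-cell coculture and 1.45-fold lower in conditioned medium than in the control, all under 2-fold. Compared with conditioned medium it was 1.92-fold higher in the live-cell coculture and 2.26-fold higher in the irradiated-cell coculture.

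Between treated arrays, 2 of 8 genes (Vegfa and Hbegf) were at least 2-fold higher in the live-cell coculture than in conditioned medium and none was lower, against 1.75% and 1.14% of all genes. In the irradiated-cell coculture 3 of 8 (Vegfa, Hbegf and Plaur) were higher than in conditioned medium and none was lower, against 1.95% and 1.24% of all genes. Between the live and the irradiated-cell coculture 0 of 8 differed 2-fold, and of all genes 0.368% were higher and 0.302% lower in the live-cell coculture. Live over irradiated-cell coculture, the log2 ratio was -0.55 for Vegfa, -0.20 for Thbs1, -0.24 for Plaur, 0.27 for Hbegf and 0.31 for Vegfb at their brightest probe sets.

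**Figure D4:**
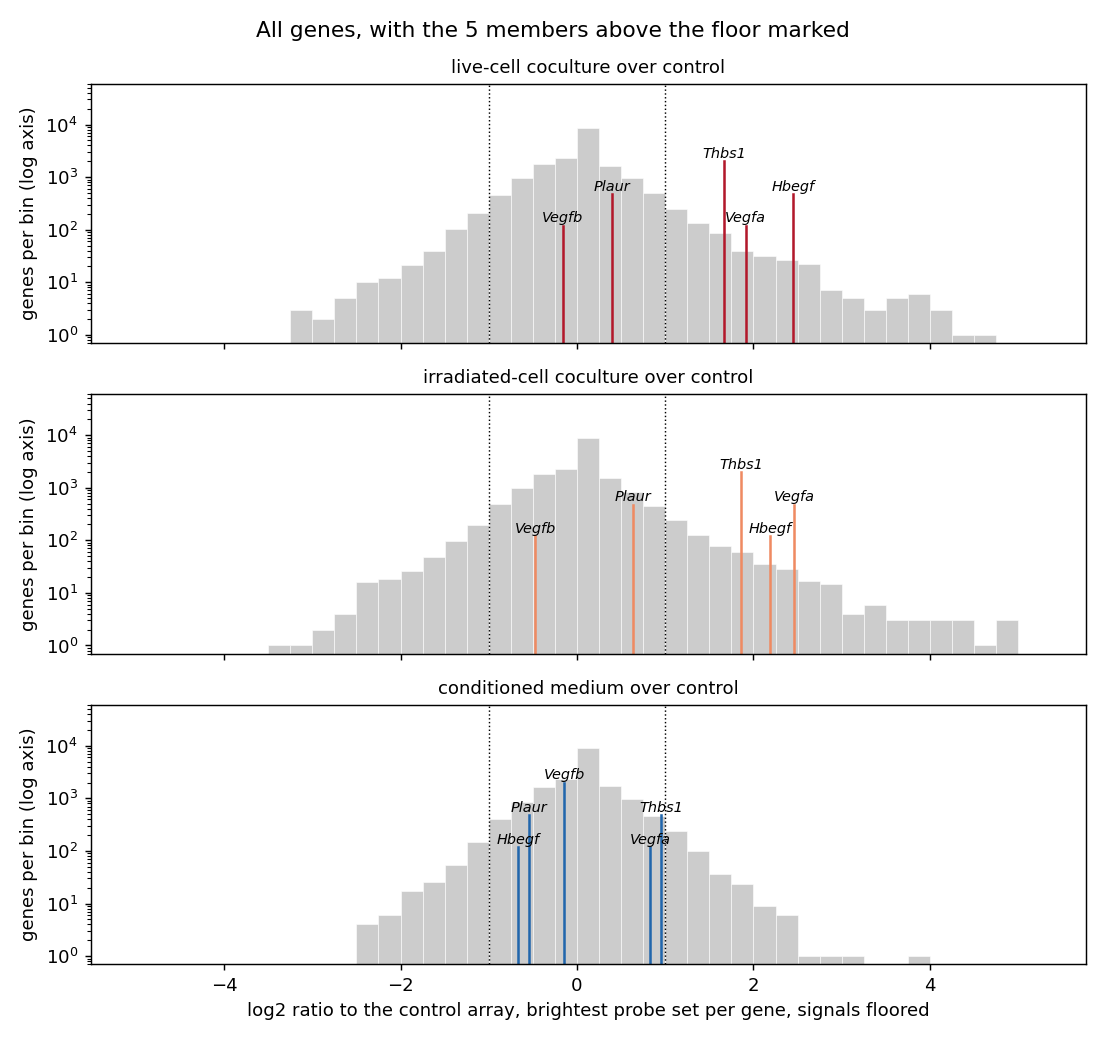
Number of genes per bin of log2 ratio to the control (vertical, log axis; 18193 genes) for the live-cell coculture, the irradiated-cell coculture and conditioned medium, with lines of arbitrary height at the ratios of the 5 genes above the floor. Vegfa, Hbegf and Thbs1 lay beyond the dotted 2-fold line on both coculture panels, and none of the 5 did so in conditioned medium.

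The nearest genes by pattern were sought for the 3 members that differed 2-fold from the control, as the smallest distance over the 3 log2 ratios to the control among genes above the floor on all arrays (9540 for Vegfa and Thbs1 and 9541 for Hbegf). These ratios share the control array, and no test is attached. For Vegfa the nearest were Junos (distance 0.19), Mthfd1l, a mitochondrial folate enzyme (0.34), and Cdh1, the epithelial cadherin (0.39). Cdh1 had log2 ratios of 2.30 in the live-cell coculture, 2.54 in the irradiated-cell coculture and 0.83 in conditioned medium, beside 1.91, 2.46 and 0.83 for Vegfa. Only the brightest probe set of each gene was used. The other Vegfa probe set had 3.53, 3.77 and 1.85, further from the brightest than the neighbours named.

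For Hbegf the nearest were Rgs1, a regulator of G protein signalling (distance 0.20), the transcription factor Myc (0.44) and Cdc42ep2, an effector of the GTPase Cdc42 (0.55). Rgs1 had signals of 5432.3 in the live-cell coculture, 5113.3 in the irradiated-cell coculture, 652.2 in conditioned medium and 989.5 in the control. Like Hbegf, it was high with tumour cells and lowest in their medium. For Thbs1 the nearest were Ier3, an immediate early gene (distance 0.029), Tnfrsf23, a decoy receptor of the death ligand TRAIL in the mouse (0.075), and Arrdc4, an arrestin-like protein (0.086). Ier3 had signals of 5129.8, 5923.0 and 3110.9 on the treated arrays in the order above and 1631.5 in the control. The other Hbegf probe set had log2 ratios of 2.03, 1.79 and -0.22, against 2.45, 2.19 and -0.67 at the brightest. For Thbs1 the other single-gene probe set had 3.07, 3.55 and 1.92, against 1.67, 1.86 and 0.96. Neighbours of these other probe sets were not sought.

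The receptors of the VEGF ligands differed less than Vegfa or in the other direction. Of 7 other VEGF ligands and receptors, 1 was higher and 1 lower in the live-cell coculture, 0 were higher and 1 lower in the irradiated-cell coculture, and none differed 2-fold in conditioned medium (median log2 ratios of -0.42, -0.28 and 0.00). The lower gene was Nrp1, a co-receptor of VEGF-A and of semaphorins, with signals of 704.6 in the live-cell coculture, 473.6 in the irradiated-cell coculture, 1354.0 in conditioned medium and 1419.8 in the control. It was 2.02-fold lower in the live-cell coculture and 3.00-fold lower in the irradiated-cell coculture, and its 3 other probe sets had log2 ratios of -1.62 to -0.99 and -2.26 to -1.78. Flt4, the receptor of VEGF-C, was 2.07-fold higher in the live-cell coculture at a dim signal of 105.7, against 51.0 in the control. Kdr, VEGF receptor 2, had 233.7, 302.4 and 208.1 on the treated arrays and 399.9 in the control, under 2-fold each time. Flt1, VEGF receptor 1, was under the floor on all 4 arrays.

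None of the 8 other EGF family ligands measured, among them Tgfa and Btc, differed 2-fold from the control on any treated array. Nrg1 and Nrg3 were under the floor on every array, so no difference could be seen for them. Epgn and Nrg4 exceeded it only in the live-cell coculture. Of 10 EGF receptors and genes of ligand release and feedback, 2 were higher in the live-cell coculture, 1 in the irradiated-cell coculture and 1 in conditioned medium, and none was lower (median log2 ratios of 0.24, 0.28 and 0.00). Errfi1, a feedback inhibitor of the EGF receptor, had signals of 254.1 in the live-cell coculture, 380.4 in the irradiated-cell coculture, 147.3 in conditioned medium and 98.5 in the control. It was 2.58-fold and 3.86-fold higher in the live and irradiated-cell cocultures and 1.50-fold higher in conditioned medium, and its second probe set had log2 ratios of 1.53, 1.99 and 0.98. Rhbdf1, a regulator of the sheddase ADAM17, was 2.06-fold higher in the live-cell coculture, and Lrig1, another inhibitor of the receptor, was 2.27-fold higher in conditioned medium. Adam10, a gene of ligand release, differed by less than 2-fold at its brightest probe set and was not counted. Its 2 other probe sets above the floor on any array did not share this. They had log2 ratios of 2.49 to 2.78 in the live-cell coculture, 2.22 to 2.70 in the irradiated-cell coculture and 2.18 to 2.42 in conditioned medium. Egfr itself had signals of 285.4, 284.8 and 262.0 on the treated arrays and 264.3 in the control.

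Of the 10 other genes of plasminogen activation that were measured, 1 was higher in the live-cell coculture, none in the irradiated-cell coculture and 1 in conditioned medium, and none was lower. Both counts were Serpinb2, an inhibitor of urokinase, with signals of 211.1 in the live-cell coculture, 124.5 in the irradiated-cell coculture, 475.4 in conditioned medium and 86.6 in the control. Serpinb2 was highest in conditioned medium (5.49-fold over the control), on the array where Plaur was lowest. The plasminogen receptor genes S100a10, Anxa2 and Plgrkt differed by less than 2-fold at their brightest probe sets.

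Of 9 thrombospondins and receptors at their brightest probe sets, 1 was lower in each coculture and none in conditioned medium, and none was higher. It was Itgb3, the integrin beta 3 chain, with signals of 6.7 in the live-cell coculture, 26.9 in the irradiated-cell coculture, 97.6 in conditioned medium and 177.4 in the control, at least 4.0-fold lower in both cocultures. The thrombospondin 1 receptors Cd36 and Cd47 were bright on all arrays and differed by less than 2-fold, Cd36 with 3020.8, 2929.7 and 2529.4 on the treated arrays and 2053.2 in the control. Itgav, also in this list, differed by less than 2-fold at its brightest probe set. Its 2 other probe sets above the floor on any array had log2 ratios of 0.81 to 2.42 in the live-cell coculture. They had 0.31 to 2.05 in the irradiated-cell coculture and 0.91 to 1.76 in conditioned medium. Thbs3 and Thbs4 were under the floor on all 4 arrays, and Thbs2 did not exceed 53.7.

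Of 15 other angiogenic factors measured, 1 was higher in each coculture, none in conditioned medium, and none was lower. This was Ccn1, a matrix-associated protein that binds integrins, with signals of 107.9 in the live-cell coculture, 151.7 in the irradiated-cell coculture, 54.2 in conditioned medium and 36.1 in the control (at least 2.44-fold and 3.42-fold higher in the cocultures). Of 8 oxygen-sensing genes, 2 were higher in the live-cell coculture, 3 in the irradiated-cell coculture and 1 in conditioned medium, with none lower. Egln3, a prolyl hydroxylase induced by hypoxia, had signals of 1054.7, 1412.3 and 162.8 on the treated arrays and 39.8 in the control. This was the order seen for Vegfa. Its other probe set had log2 ratios of 3.02, 3.69 and 0.41 in the live-cell coculture, irradiated-cell coculture and conditioned medium. Hif1a, an oxygen-regulated factor known to drive Vegfa, was 2.62-fold higher in the irradiated-cell coculture at its brightest probe set. Its 3 other probe sets had log2 ratios of 1.47 to 4.40 on that array. At those 3 probe sets Hif1a had log2 ratios of 0.00 to 3.80 in the live-cell coculture and 0.67 to 3.34 in conditioned medium. Egln1 was 2.26-fold and 2.74-fold higher in the live and irradiated-cell cocultures. Whether oxygen sensing had a part in the Vegfa signals was not tested.

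**Figure D5:**
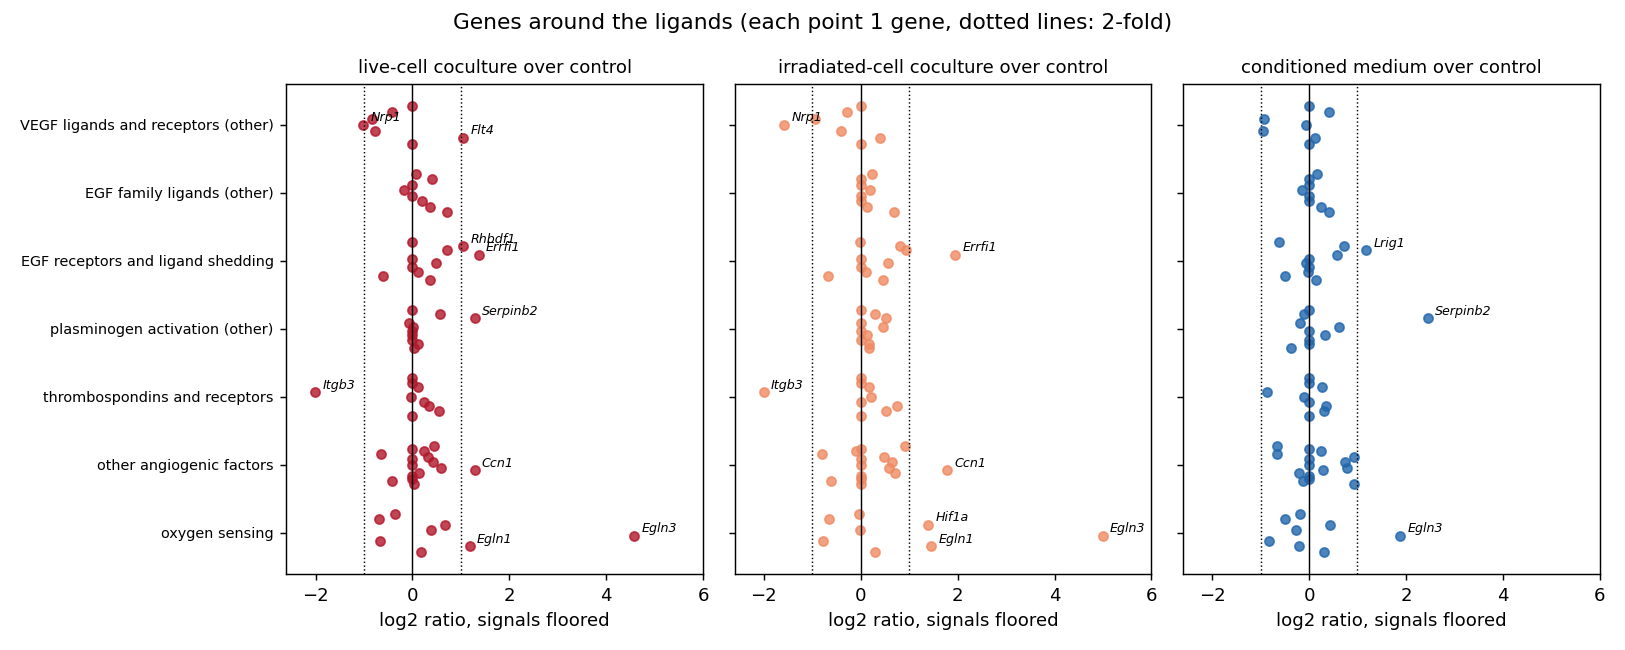
Log2 ratio to the control (horizontal) of each measured gene of the 7 surrounding lists, with a panel each for the live-cell coculture, the irradiated-cell coculture and conditioned medium; genes at least 2-fold apart are named and dotted lines mark 2-fold. Errfi1, Ccn1 and Egln3 were higher and Itgb3 and Nrp1 lower in both cocultures, and most other points lay between the dotted lines.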

How the data were processed

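Per the submitters' processing notes, the deposited values were made with GCOS 1.4 and MAS5, the array maker's programs, which summarise matching and mismatching probes. They are 1 linear intensity (signal) per probe set and array, and the authors' scaling target is not given in the sources used here. With 2% trimmed at either end, mean signals were 149.4 to 149.5, so the arrays were compared as deposited. Mismatch subtraction leaves dim signals, and ratios built on them, imprecise.

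Of 45101 probe sets, 64 controls were left out, 34945 had 1 gene, 932 several and 9160 were not in the platform annotation. Each of 18193 genes was represented by its probe set of highest mean log2 signal. Signals under 44.3, the 50th percentile, were set to it. Ratios with the dimmer side at or under this floor are lower bounds. Detection calls were not used. Python 3.11.15, numpy 2.4.6 and pandas 2.3.3 were used, and the steps were tested on simulated data. Precision is limited by having 1 array per condition.

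The members and the gene lists were chosen with earlier results of these data known. Named genes are all members, up to 4 genes per list at least 2-fold from the control, Egfr, Flt1 and Kdr, and the 3 nearest genes by pattern, with symbols of clone form skipped. Other genes were chosen after their values were seen.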

Additional observations from a re-analysis of the deposited data

Results flagged for a closer look

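In 2 genes the cocultures and conditioned medium lay on opposite sides of the control, each on 1 array per condition, and the difference was not tested. For Hbegf the log2 ratio to the control was 2.45 in the live-cell coculture, 2.19 in the irradiated-cell coculture and -0.67 in conditioned medium, the last a bound because the signal lay under the floor. With the floor at the 75th percentile the conditioned medium ratio of Hbegf was 0.00, both signals lying under it, and no opposite direction remained. For Plaur it was 0.40, 0.64 and -0.54 in the same order, all under 2-fold. The comparisons share the control array.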

How the results depend on the processing

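Of 240 member ratios recomputed with another floor, scaling or rule for probe sets, 229 stayed on their side of 2-fold, 11 crossed above it and 0 reversed. Many of the 240 had little or no room to move. Ratios of Vegfc, Ereg and Plau stayed at 0 unless the floor was lowered. Averaging over probe sets left genes with a single probe set unchanged. The counts of members higher in the cocultures than in the control held Vegfa, Hbegf and Thbs1 under all 6 alternatives, and Vegfc (both cocultures) and Ereg (irradiated) joined only with the floor at the 25th percentile (12.9), as dim signals. With that floor 5 members differed in the irradiated-cell coculture from the control and 5 from conditioned medium, 1 in conditioned medium from the control (Plau) and 1 between the cocultures (Ereg). For conditioned medium against the control, Thbs1 passed 2-fold after quantile normalization (1 member, log2 ratio 1.11), and Vegfa and Thbs1 did as the mean over probe sets (2 members, 1.34 and 1.44). With the floor at the 75th percentile the Hbegf ratios shrank by construction, to log2 1.31 (live) and 1.04 (irradiated) over the control. At 3-fold, 1 member (Hbegf) was higher in the live-cell coculture than in conditioned medium.

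Counts of all genes at least 2-fold apart moved with the floor and the threshold by construction. In the order live, irradiated and conditioned medium against the control, live against irradiated, and live and irradiated against conditioned medium, they were 1018, 1041, 675, 122, 526 and 579. They were 2245, 2213, 1685, 1063, 1571 and 1626 with the floor at the 25th percentile, 513, 525, 307, 25, 241 and 263 with it at the 75th (155.6), and 271, 326, 98, 12, 141 and 160 at 3-fold. As the mean over probe sets live against irradiated gave 61. Over the control, the higher and lower counts were 479 and 482 (live), 530 and 470 (irradiated) and 284 and 340 (conditioned medium) after quantile normalization, and 490 and 559, 558 and 504, and 300 and 408 after median centring, against 612 and 406, 632 and 409, and 419 and 256 as deposited. No paired analysis was possible because each condition had 1 array. Signal over background limits Vegfc, Ereg and Plau.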
